A study of Homo sapiens with 22 samples.

Results

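In TC-32 cells, 3141 distal regions carried H3K27ac in both control replicates and in neither replicate after FLI1 knockdown, although no GGAA microsatellite lay at their centre. They were found by merging the peaks of 4 H3K27ac lists wherever at least 1 bp overlapped, on chromosomes 1 to 22 and X. A region was kept when both control lists and no knockdown list held a peak in it, its centre lay more than 2 kb from every transcription start site (TSS) of GENCODE release 44, and no unbroken run of 4 or more GGAA units, on either strand, lay within 1 kb of the centre. The 3141 regions were 3.47% of the 90572 merged regions and 71.3% of the 4403 lost ones. Of all merged regions, 4.86% were lost in this sense, which is the background of the selection. The 4 H3K27ac lists chose these regions, so their values there are given as a description. Leaving out siNEG replicate 1 or replicate 2 from the rule gave 11721 or 11839 regions, so the need for a peak in both control lists sets the count.

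TC-32 is an established Ewing sarcoma line, and all libraries were made from it. Both arms were transfected at 20 nM, with a control siRNA in siNEG and with an siRNA to FLI1 in siFLI1, the knockdown of EWSR1::FLI1 in this study. Immunoprecipitation was done for H3K27ac, for H3K4me3 and for the factor ETS1 with 2 replicates per arm, and a further H3K27ac library per arm, labelled 1a, was made with another antibody label. The siNEG H3K27ac replicates carry a roman numeral in their label and the siFLI1 ones do not, and its meaning is not given. The labels do not say whether replicates were separate transfections, so p-values measure only the spread between these samples, which may be technical.

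EWSR1::FLI1 joins the activating part of EWSR1 to the ETS DNA-binding domain of FLI1. In Ewing sarcoma the fusion binds repeated GGAA units, which it turns into active enhancers, and it also binds single GGAA sites, where it can activate or repress. H3K27ac is an acetylation of histone H3 found at active enhancers and promoters, whereas H3K4me3 is a methylation found mainly at promoters. As a check of the labelled cell type, 7 of 7 genes listed as Ewing sarcoma markers had H3K4me3 at a start in both siNEG lists. So had 3 of 3 fibroblast, 2 of 4 epithelial and 1 of 4 neuroblastoma markers, and 0 of 4 blood and 0 of 3 muscle markers. In bulk chromatin, fewer cells with the mark and less mark per cell cannot be told apart.

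The sequences at the summits show what the rule kept, and the absence of a run there was set by the rule. Each is 200 bases of the hg38 plus strand, 5′ to 3′, around the stronger siNEG summit, with every GGAA and its complement TTCC in capitals. SLC35F4 names the nearest protein-coding start of a region among the strongest by fold, while the KLF15 region is the strongest within 100 kb of that gene of the fusion programme.
SLC35F4 summit, chr14:57998287-57998486: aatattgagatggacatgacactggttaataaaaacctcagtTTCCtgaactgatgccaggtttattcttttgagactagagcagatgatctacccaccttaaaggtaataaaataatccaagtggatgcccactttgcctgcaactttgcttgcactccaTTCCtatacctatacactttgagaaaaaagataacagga
KLF15 summit, chr3:126261244-126261443: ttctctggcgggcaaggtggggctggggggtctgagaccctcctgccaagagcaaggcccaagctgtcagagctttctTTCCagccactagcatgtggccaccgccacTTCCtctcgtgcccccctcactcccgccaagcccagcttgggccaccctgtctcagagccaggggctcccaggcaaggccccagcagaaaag
The SLC35F4 and KLF15 windows held 2 TTCC each, and neither held adjacent units. To show what the rule removed, 120 bases at a lost distal region whose nearest protein-coding start is CCNA1 and which the rule left out, held an unbroken run of 17 units.
CCNA1 run, chr13:36481013-36481132: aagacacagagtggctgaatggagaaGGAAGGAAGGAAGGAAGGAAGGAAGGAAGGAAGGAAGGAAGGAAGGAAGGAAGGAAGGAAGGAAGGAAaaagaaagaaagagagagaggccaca

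The runs that lay nearest to 3 of the strongest regions are shown next, since these turned out to lie just beyond the 1 kb limit. Each window is 120 bases of the hg38 plus strand centred on the run.
MACROH2A2 run, chr10:70041263-70041382: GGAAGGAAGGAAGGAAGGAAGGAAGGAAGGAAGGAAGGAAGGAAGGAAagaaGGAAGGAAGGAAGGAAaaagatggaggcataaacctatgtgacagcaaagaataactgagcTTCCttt
SLC35F4 run, chr14:57998760-57998879: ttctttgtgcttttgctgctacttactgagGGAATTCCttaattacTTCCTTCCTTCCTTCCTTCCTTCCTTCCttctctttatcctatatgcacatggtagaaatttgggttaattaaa
TMX3 run, chr18:68504744-68504863: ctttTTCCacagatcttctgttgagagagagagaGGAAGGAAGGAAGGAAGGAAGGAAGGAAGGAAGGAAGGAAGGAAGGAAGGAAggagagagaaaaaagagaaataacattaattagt
The SLC35F4 run had 7 units and the TMX3 run 13. Beside MACROH2A2 the nearest run had 4 units and was parted by a short break from a longer tract on the side away from the region.

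The regions were of middling to low H3K27ac fold within their lists. Their median fold over local background, the authors' value per peak, was 4.19 in siNEG replicate 1 and 4.10 in replicate 2, with the middle part of the regions between 3.59 and 5.12 and between 3.51 and 4.74 (25th to 75th percentile). These medians stood at percentile 40.8 and 42.6 of their lists. At the 453 lost distal regions with a GGAA run the medians were 5.79 and 4.84, and at the 11344 distal regions without a run that were in all 4 lists (called stable below) they were 6.55 and 5.67. Gained distal regions without a run, with peaks in both siFLI1 lists and no siNEG list, had medians of 4.59 and 4.62 in the siFLI1 lists, at percentile 48.4 and 45.4. The regions were also narrow, with a median width of 708 bp against 740 bp for gained regions, 883 bp for lost regions with a run and 2318.5 bp for stable regions. They covered 2.58 Mb in all. The authors' −log10 q-value had medians of 7.29 and 6.86, and it was under 5 at 24.2% and 23.2% of the regions.

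**Figure D1:**
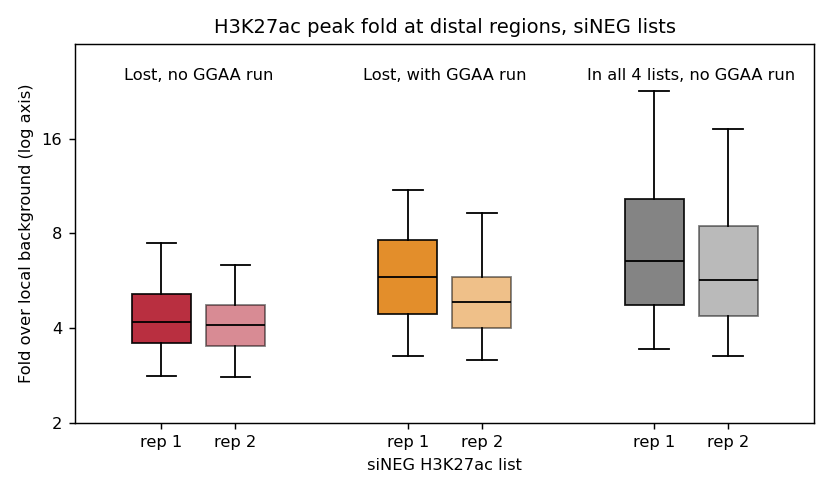
Fold over local background (log axis) of H3K27ac peaks in siNEG replicates 1 and 2, for lost distal regions without a GGAA run, lost distal regions with one, and distal regions in all 4 lists without one. Boxes span the 25th to 75th percentile, the line is the median and whiskers reach the 5th and 95th percentile. Of these 3 sets, the lost regions without a run have the lowest medians, 4.19 and 4.10.

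Values just inside and just outside the limits of the rule were close for the distance to a start and less so for run length. Lost regions without a run whose centre lay 2.0 to 2.5 kb from a start (175 regions) had median folds of 3.94 and 4.04, and those at 1.5 to 2.0 kb (160 regions) had 3.88 and 3.91. Lost distal regions whose longest run had 3 units (28 regions) had 4.07 and 4.06, those with 4 units (26 regions) had 4.87 and 4.33, and those with 10 or more (314 regions) had 6.13 and 4.85. Just inside the limit on run distance, those with a run at 1.0 to 1.5 kb (61 regions) had 4.68 and 4.85. Their median width was 1262 bp, and 31.1% of them were in the siNEG 1a list. A further 2349 regions without a run were left out because exactly 1 siFLI1 list held a peak, and 15145 because only 1 siNEG list did. Loss was not always isolated from remaining signal: a siFLI1 H3K27ac peak lay within 1 kb of 980 of the 3141 regions (31.2%), and within 1 kb of 16.8% of the lost regions with a run.

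Most of the regions lay inside genes. Their centres were intronic in 2036 cases (64.8%), exonic in 139 (4.43%) and intergenic in 966 (30.8%). Intergenic centres made up 50.1% of the lost distal regions with a run, 26.3% of stable regions and 29.0% of the 5289 gained distal regions without a run. Gained regions of any place made up 8.19% of all merged regions. The median distance to a start was 11.2 kb, against 22.2 kb with a run and 9.95 kb for stable regions. By chromosome, the regions made up 6.62% of the merged H3K27ac regions on chromosome 13 and 5.51% on X, and 1.57% on chromosome 19. Gained distal regions without a run made up 6.23%, 5.42% and 3.06% there, so chromosome 19 was low for both sets.

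Most of the lost regions stood alone, and some formed small groups. Another lost region lay within 10 kb of 29.2% of them, against 15.3% of stable regions and 4.16% of gained ones. A lost region with a GGAA run lay within 10 kb of 3.60% of them, against 0.873% of stable and 0.151% of gained regions. A region that was in all 4 lists lay within 10 kb of 51.3%. Closeness to regions of the same kind was higher in the other sets. Another gained region lay within 10 kb of 41.4% of gained regions. Another region in all 4 lists lay within 10 kb of 59.1% of stable regions. Linked across the gap width commonly used to stitch enhancers, 2308 of the 3141 stood alone, 329 groups held 2, 47 held 3, 6 held 4 and 2 held 5. The groups of 5 lay inside PAX5, which encodes a transcription factor of the B lineage, and upstream of MACROH2A2, which encodes a histone H2A variant.

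In the PAX5 group, at chr9:36933814-36942459, the fold in the weaker siNEG list ran from 2.60 to 5.81. No GGAA run and no stable or gained region lay in its 8.65 kb. The siNEG 1a list alone held 2 of the 5 regions, and the siFLI1 1a list held 0. The MACROH2A2 group, at chr10:70034576-70044401, held 2 GGAA runs, and its folds in the weaker list ran from 3.59 to 15.1. Here the siNEG 1a list alone held 3 of 5 regions and the siFLI1 1a list 0. Among whole genes, OPCML, a cell adhesion protein of the IgLON family, held 12 of the regions, KIAA1217 held 11, and SYNPR, a synaptic vesicle protein, and MAGI1, a junction scaffold, held 8 each. OPCML held 67 merged regions in all over 1118 kb, KIAA1217 held 156 over 853 kb, SYNPR 41 over 389 kb and MAGI1 64 over 685 kb, where 3.47% of all merged regions were of this kind.

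**Figure D2:**
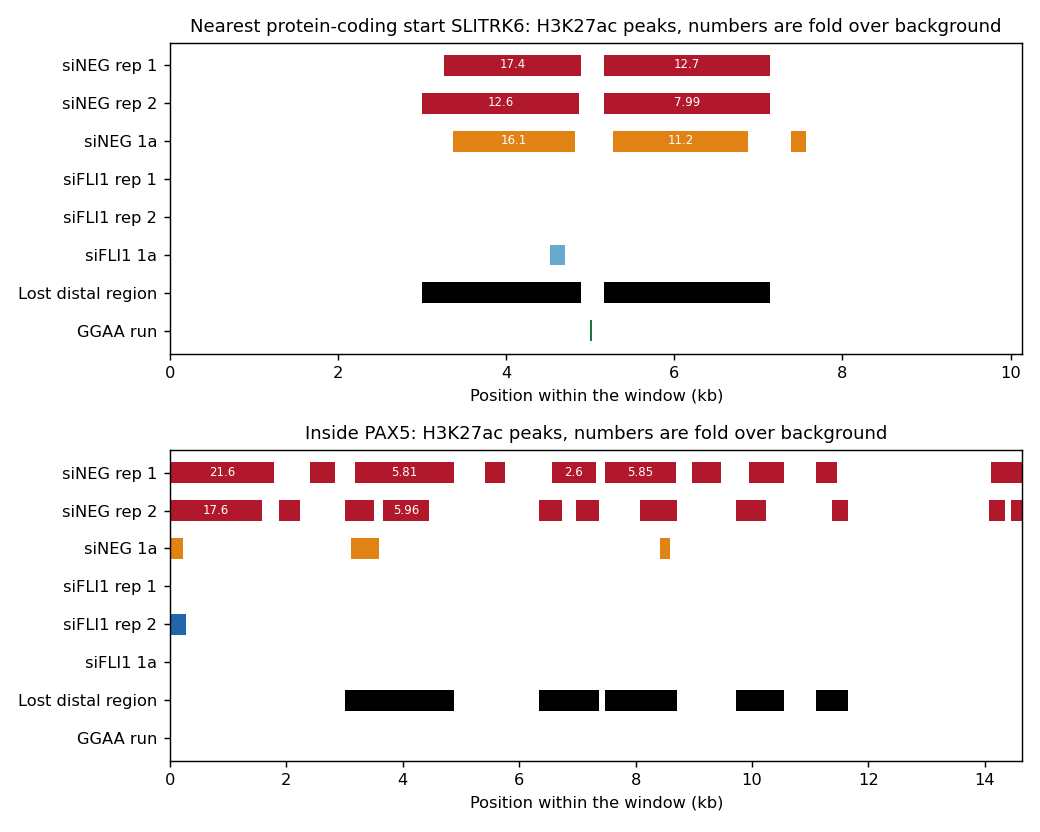
H3K27ac peaks of each list (bars, with the authors' fold over background in the wider ones) along 2 windows, with the lost distal regions in black and GGAA runs of 4 or more units in green; the x axis is position within the window in kb. Upper map, a pair of lost regions whose nearest protein-coding start is SLITRK6, with a 6-unit run in the gap between them; lower map, the group of 5 inside PAX5, where no run is present.

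The strongest regions stood beside GGAA runs that the 1 kb limit had passed over. Of the 10 with the highest fold in the weaker siNEG list, 7 had a run of 4 or more units within 2 kb of the centre, and in all 7 it lay within 350 bp of the region's edge. The share with a run within 2 kb was 15 of the first 50 (30.0%), 19 of the first 100 (19.0%), 5.10% of the highest quartile by fold and 2.04% of the lowest. Gained regions ranked by fold in the siFLI1 lists had 0 of the first 100 with a run within 2 kb, and stable regions had 9 of the first 100. Stable regions rose with fold as well, from 1.13% in the lowest quartile to 5.71% in the highest. Within 10 kb, the first 100 had a run at 29 lost, 29 stable and 7 gained regions. The strong regions were also wide, with a median of 2629.5 bp for the first 10 against 937 bp for the highest quartile, so a run just past their edge lies more than 1 kb from the centre. Of the 93 lost regions with a run 1 to 2 kb from the centre, 3 held the run inside and 30 had it within 500 bp of an edge. Of 273 such stable regions, 120 held it inside and 109 had it within 500 bp of an edge. These stable regions had a median width of 2967 bp, against 1084 bp for the 93. Of 36 such gained regions, 0 held it inside and 2 had it within 500 bp of an edge.

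The region with the highest fold in the weaker list lay at chr3:8298336-8300742, in an intron of a non-coding gene, 202 kb upstream of LMCD1, which encodes a LIM-domain cofactor. Its fold was 20.3 in siNEG replicate 1 and 15.7 in replicate 2. In the 1a libraries the fold was 10.9 in the siNEG 1a list and 6.27 in the siFLI1 1a list. Its nearest run, of 10 units, was 12.05 kb from the centre. The MACROH2A2 region, at chr10:70041619-70044401, 9.53 kb upstream of that gene, had folds of 21.9 and 15.1, with 6.92 in the siNEG 1a list and no peak in the siFLI1 1a list.

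A pair of lost regions faced each other across 1 run far from any protein-coding start. At chr13:85332357-85334252, 473 kb downstream of SLITRK6, which encodes a neuronal transmembrane protein, the folds were 17.4 and 12.6 in the siNEG lists, 16.1 in the siNEG 1a list and 5.23 in the siFLI1 1a list. Its partner at chr13:85334523-85336498 had 12.7 and 7.99, then 11.2 in the siNEG 1a list and no siFLI1 1a peak. A 6-unit run sat between them, 98 bp from the edge of the first and 150 bp from the edge of the second. In 27 of the 93 cases with a run at 1 to 2 kb, another lost region lay within 2 kb of the run on its other side, and in 6 of these that region too was without a run under the rule.

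The other regions of the first 10 were mostly far from protein-coding genes. The SLC35F4 region, at chr14:57996198-57998764, had folds of 18.1 and 14.8, a 7-unit run 42 bp from its edge, and 13.9 in the siNEG 1a list against 7.93 in the siFLI1 1a list. The region nearest TMX3, a thiol oxidoreductase of the endoplasmic reticulum, lay at chr18:68502039-68504744 and had folds of 12.8 and 11.1, a 13-unit run 34 bp from its edge, 9.01 in the siNEG 1a list and no siFLI1 1a peak. The region nearest PCDH10, a protocadherin, at chr4:133637530-133640440, had 10.1 and 11.5 with a 13-unit run 38 bp from its edge. The region nearest TASL, an adaptor of innate immune signalling, at chrX:30467601-30468595, had 10.1 and 11.7, no 1a peak in either arm, and its nearest run was 85.8 kb away. Of the 10 regions, 8 were intergenic, 10 did not overlap H3K4me3 in siNEG, 8 were in the siNEG 1a list and 4 in the siFLI1 1a list, each of the 4 with a lower fold there. A siFLI1 H3K27ac peak of the replicates lay within 1 kb of 5 of the 10, those nearest LMCD1, MACROH2A2, SLC35F4, PCDH10 and TASL.

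Beyond the window that the rule examined, GGAA runs were more frequent around the lost regions than around the comparison sets. A run of 4 or more units lay within 10 kb of 568 of the 3141 (18.1%, 95% exact binomial interval 16.8 to 19.5), of 11.1% of stable regions and of 7.53% of gained regions. Within 5 kb the shares were 10.1%, 5.96% and 3.33%. At 100 kb they had come closer, 66.6%, 62.3% and 56.7%. For runs of 10 or more units within 10 kb they were 10.1%, 4.66% and 1.72%. The order was the same for intergenic regions alone, at 24.8%, 15.7% and 11% within 10 kb, and for intronic regions alone, at 15.3%, 9.37% and 6.15%. Intervals here and below reflect only how many regions were counted, because regions do not replicate a condition, and no test was made.

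Many of the runs near the lost regions had another H3K27ac region within 1 kb. Of the 568 nearest runs within 10 kb, 125 had another lost region within 1 kb, 217 (38.2%) had a region in all 4 lists, 1 had a gained region, 79 had a region of another pattern, 18 had only the lost region itself and 128 (22.5%) had no H3K27ac region of any list. Broken repeats near the centre were about as frequent in the 3 sets at a cut of 6: 6 or more GGAA on 1 strand within 100 bp, a measure chosen after the data were seen, occurred within 1 kb of 2.83% of lost regions, 2.68% of stable and 2.70% of gained ones, against 98.2% of lost regions with a run. At 8 or more the shares were 0.828% (0.541 to 1.21) of lost, 0.538% (0.412 to 0.690) of stable and 0.605% (0.414 to 0.853) of gained regions.

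**Figure D3:**
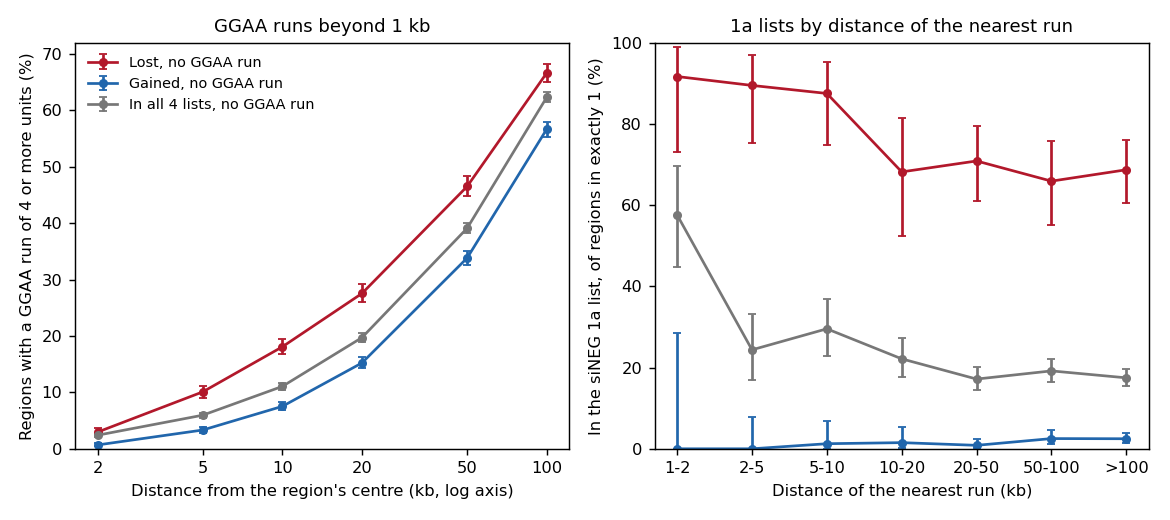
Left, share of distal regions with a GGAA run of 4 or more units within 2 to 100 kb of the centre (log axis), for lost (red), gained (blue) and stable (grey) regions without a run within 1 kb. Right, of the regions in exactly 1 of the 1a lists, the share in the siNEG 1a list by distance of the nearest run; bars are 95% exact binomial intervals over regions. Lost regions lead at each distance on the left, and on the right fall from 91.7% at 1 to 2 kb to 68.7% beyond 100 kb.

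The 1a libraries, which the rule did not use, gave a second view of these regions with 1 library per arm, so no test was made. The siNEG 1a list held 483 of the 3141 regions (15.4%, 14.1 to 16.7) and the siFLI1 1a list 255 (8.12%, 7.19 to 9.13). In the siNEG 1a list only were 360 regions (11.5%), against 3.40% of all merged regions, and in the siFLI1 1a list only were 132 (4.20%), against 12.1% of all merged regions. For the larger sets found when the rule left out siNEG replicate 1 or replicate 2, the share in the siNEG 1a list only was 4.83% or 5.16%. Most regions, 2526 (80.4%), were in neither. The siNEG list was the one that held 73.2% (69.0 to 77.0) of the 492 regions with a peak in exactly 1, compared with 95.5% of 111 lost regions with a run, 19.8% of 3497 stable and 1.96% of 1787 gained regions.

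List length moved these shares but not their order. The siNEG 1a list had 32738 peaks and the siFLI1 1a list 51663. With both held to their 32738 strongest peaks, 432 lost regions were in the siNEG list only and 37 in the siFLI1 list only, which is 92.1% (89.3 to 94.4) against 44.5% of stable and 4.21% of gained regions. Where both full 1a lists held a peak, at 123 of the regions, fold was lower in siFLI1 at 90 (73.2%), with a median log2 ratio of siFLI1 to siNEG fold of −0.27 and median folds of 5.93 in siNEG and 5.00 in siFLI1. At 4684 stable regions the median log2 ratio was 0.11.

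**Figure D4:**
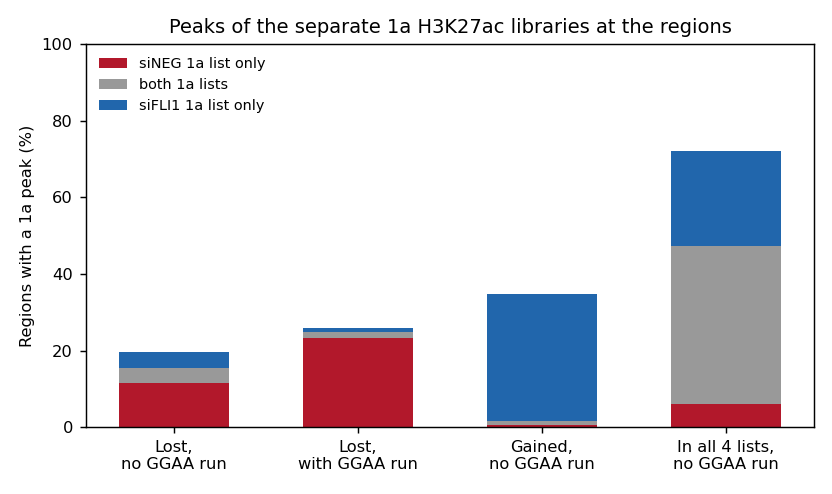
Share of regions (y axis, percent) with a peak in the siNEG 1a list only (red), in both 1a lists (grey) or in the siFLI1 1a list only (blue), for 4 sets of distal regions; each 1a list is 1 library. Lost regions without a run have 11.5% in siNEG only and 4.20% in siFLI1 only, while gained regions have 33.1% in siFLI1 only.

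In list membership, the 1a pair differed more at lost regions near a GGAA run than at those far from one. Among the 568 with a run between 1 and 10 kb, a split chosen after the data were seen, 98 were in the siNEG 1a list only and 12 in the siFLI1 1a list only (89.1%, 81.7 to 94.2). Among the 2573 with no run within 10 kb, the counts were 262 and 120 (68.6%, 63.7 to 73.2). Fold did not show this split: at regions in both 1a lists the median log2 ratio was −0.26 for the 19 with a run between 1 and 10 kb and −0.27 for the 104 without one, with fold lower in siFLI1 at 73.7% and 73.1%. By distance the share in the siNEG 1a list was 91.7% at 1 to 2 kb, 89.5% at 2 to 5 kb and 87.5% at 5 to 10 kb, then 68.2% at 10 to 20 kb and 70.9% at 20 to 50 kb. Stable regions had 57.6% at 1 to 2 kb and between 17.2% and 29.5% in each farther class, and gained regions had 0 of 11, 0 of 46 and 1 of 80 at 1 to 2, 2 to 5 and 5 to 10 kb. By fold in the weaker siNEG list, the share of lost regions was 65.9%, 59.6%, 66.9% and 86.0% from the weakest quartile to the strongest, so it was highest in the strongest. By distance of the run, the median fold in the weaker list was 4.12 at 1 to 2 kb, 3.63 at 2 to 5 kb, 3.75 at 5 to 10 kb and 3.72 beyond 100 kb.

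The 5 regions strongest in the siNEG 1a list among those absent from the siFLI1 1a list included 1 inside SYNPR, at chr3:63372029-63372991, with fold 14.5 in the siNEG 1a list and 5.30 and 4.94 in the siNEG replicates. A region at chr3:103492349-103494454, whose nearest protein-coding start is ZPLD1, had 12.8 in the siNEG 1a list and a 6-unit run 113 bp from its edge. A region at chr3:66803050-66803797, 195 kb upstream of KBTBD8, had 11.2 and its nearest run was 81.3 kb away.

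H3K4me3 was rare at the regions, as at gained distal regions without a run. Its mean share in siNEG was 19.5% over all merged regions, 9.32% at stable and 2.70% at gained regions. At the lost regions it overlapped 90 (2.87%) in siNEG replicate 1, 90 (2.87%) in siNEG replicate 2, 57 (1.81%) in siFLI1 replicate 1 and 60 (1.91%) in siFLI1 replicate 2. The groups did not overlap, and both siFLI1 lists were lower. The mean share was 2.87% in siNEG and 1.86% ± 0.068 in siFLI1 (SD, n = 2 each), a difference of −1.003 points with a two-sided exact permutation p of 0.33, the smallest that 2 samples against 2 can give. The difference was of the same size at stable regions (−1.0005 points) and over all merged regions (−1.03 points), where the mark was more frequent, and was −0.50 points at gained regions. The ratio of the means was 0.65, against 0.70 at lost regions with a run, 0.815 at gained, 0.893 at stable and 0.947 at all merged regions, and these ratios were not compared by a test. At 43 of the regions all 4 H3K4me3 lists had a peak.

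At 15 regions (0.478%) both siNEG H3K4me3 lists and no siFLI1 list had a peak, against 0.672% of all merged regions, 0.723% of stable, 0.246% of gained and 0.221% of lost regions with a run. The reverse occurred at 2 regions, with a background of 0.223%. Among the 15, chosen here by that pattern, was an intronic region at chr20:21561542-21562995, 48.2 kb upstream of NKX2-2, a homeobox factor of the fusion programme. The start nearest to this region was that of the non-coding gene LINC01727, 4.85 kb away. The H3K4me3 peaks that overlapped the region had folds of 48.9 in siNEG replicate 1 and 26.5 in replicate 2, and neither siFLI1 list held a peak. The H3K27ac fold of the region was 4.88 and 3.76, and the nearest GGAA run was 6.41 kb away. A region in NCKAP1, an actin regulator, at chr2:183032804-183034267, lay 4.56 kb from a start. It overlapped siNEG H3K4me3 peaks of fold 85.1 and 78.1 and no siFLI1 peak. Such a fold belongs to the whole overlapping peak, whose summit may lie outside the region. At a region in MLEC, also among the 15, it was 5.37 in siNEG replicate 1 and 73.6 in replicate 2. The signal within the regions themselves was not measured. A pair of regions inside LMNA, the lamin A/C gene, had weak H3K4me3 in siNEG, at 3.62 and 3.72 for chr1:156086042-156086719.

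ETS1, an ETS factor that shares the GGAA core with FLI1, had few peaks at the regions, as at the other sets that changed. Its lists held 0 regions in siNEG replicate 1, 0 in replicate 2, 2 in siFLI1 replicate 1 and 3 in replicate 2, and a count of 0, taken to allow up to 3 counts, allows a share of up to 0.0955%. In the same order the lists held 0.279%, 0.187%, 1.69% and 2.31% of all merged regions. At gained regions they held 0, 0, 3 and 6 of 5289, and at lost regions with a run 0 in each. Across all merged regions, 1.20% had ETS1 in both siFLI1 lists and no siNEG list. Peak names in siFLI1 replicate 1 carry the number of replicate 2, so these lists may share a library and no test was made. The 3 regions, named after their values were seen, were nearest to ARL15 (ETS1 fold 7.72 and 13.0), ADGRL1 (5.32 and 8.97) and C16orf82 (6.32, in replicate 2 only).

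The GGAA word itself was present at nearly all summits of each set. In 301 bp at the stronger siNEG summit, with both strands searched, GGAA occurred in 94.7% of lost, 94.6% of gained and 94.5% of stable regions. The ETS word CCGGAA, which contains GGAA, occurred in 2.16%, 2.44% and 3.34%. Adjacent GGAAGGAA units occurred in 4.52% (3.82 to 5.31), 3.42% and 4.06%, with 3.10% in windows 1 kb to the side of the lost summits. For GGAAGGAA the lost regions had the highest share in every window tried and at either siNEG summit. For CCGGAA and for 3 adjacent units they had the lowest share in each of these. In 301 bp, 3 adjacent units occurred in 0.032% of lost, 0.076% of gained and 0.132% of stable regions. The AP-1 word TGANTCA occurred in 10.8%, 10.2% and 11.5%, RUNX TGTGGTT in 5.67%, 5.92% and 5.73%, NKX2 CACTTNA in 21.1%, 21.5% and 19.9%, and the E-box CATCTG in 21.3%, 21.7% and 20.6%. These AP-1, RUNX, NKX2 and CATCTG words hardly separated the sets, and which set was highest changed with the window or summit used.

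Other words separated the sets more, in the same direction in every window and at either siNEG summit. The SOX word ACAANG occurred at 50.05% of lost summits (48.3 to 51.8), 45.8% of gained and 46.9% of stable ones, with 44.4% beside the lost summits. The GATA word AGATAA was present in 19.0% (17.7 to 20.5), 15.7% and 15.8%, with 18.3% beside the lost summits. Lower at lost summits were the KLF word CCNCNCCC, at 18.6% (17.3 to 20.0) against 25.2% and 26.2%, the E-box CAGCTG, at 12.8% (11.6 to 14.0) against 17.1% and 15.7%, and the TEAD word GGAATG, which contains GGAA, at 15.2% (13.9 to 16.5) against 18.4% and 17.1%. The CTCF core word AGGGGGC was at 3.66%, 4.54% and 5.41%, and homeobox TAATTA at 8.34% (7.40 to 9.36), 7.43% and 7.55%, with overlapping intervals here, and at 15.3%, 12.3% and 12.9% with 250 bp to each side. GC content was 44.2% at lost, 46.1% at gained and 46.8% at stable summits, and the part of composition in the shares of these words was not tested. A match is a word in the sequence and not a bound site.

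**Figure D5:**
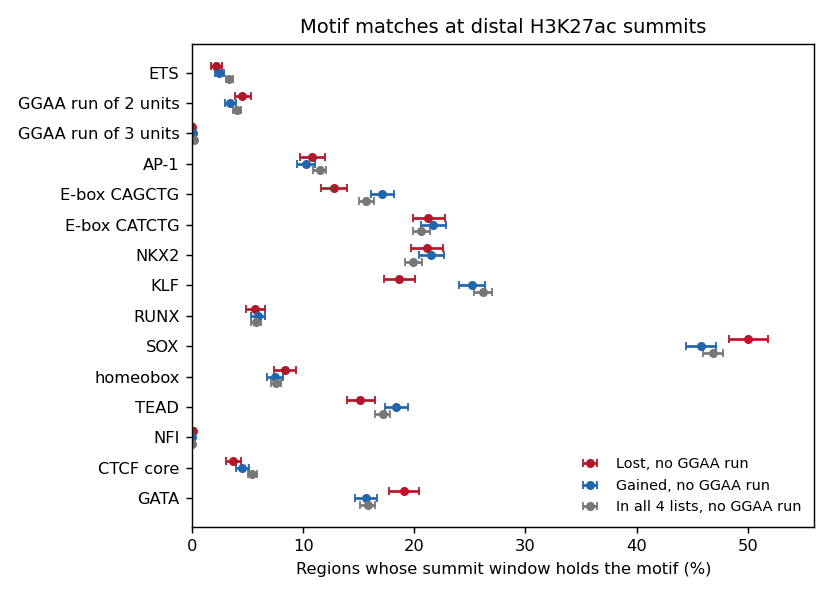
Share of regions (x axis, percent) whose 301 bp summit window holds each word on either strand, for lost (red), gained (blue) and stable (grey) distal regions without a GGAA run; bars are 95% exact binomial intervals over regions. SOX and GATA words are most frequent at lost summits, and KLF, CAGCTG and TEAD words least.

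Lost regions of this kind lay near several genes known from the fusion programme. Of 25 genes listed as raised by the fusion, 13 (52.0%) had at least 1 of the regions within 100 kb of a start, 30 counts over genes in all, with a median of 1 per gene. The background was 22.5% of 19962 protein-coding genes with a median of 0, or 27.2% of the 12652 with H3K4me3 at a start in both siNEG lists, or 33.1% of the 10872 with a stable region within 100 kb. Of the 23 listed genes with such a start, 13 (56.5%) had a region. Stable regions lay near 18 of the 25, against 54.5% of all protein-coding genes, and the list was made with knowledge of this system, so the count is a description. A lost region with a GGAA run lay within 100 kb of 4 of the 25, STEAP1, PAX7, EZH2 and NKX2-2, against 2.24% of all protein-coding genes, and NKX2-2 was among the 13.

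PRKCB, the kinase PKC beta, had 9 of the regions within 100 kb, with 20 stable and 2 gained ones. The strongest of the 9, at chr16:23780756-23782013, had folds of 7.11 and 5.13 and no 1a peak in either arm. CCND1, which encodes cyclin D1, had 4 and only 1 stable region, the strongest at chr11:69599265-69600882, 41.1 kb upstream, with folds of 4.96 and 5.01. BCL11B, a zinc finger factor, had 3, of which 1 at chr14:99274970-99276378 lay 3.48 kb upstream with folds of 4.53 and 4.42, and there the siFLI1 1a list held a peak of 5.23 and the siNEG 1a list none. NR0B1, an orphan nuclear receptor whose promoter microsatellite is a known target of the fusion, had 1 at chrX:30316068-30316531, with folds of 4.76 and 2.91 and a run 5.44 kb away. SOX6, FOXM1, PDGFC and ADGRG2 had 2 each, and IL1RAP, CAV1, ID2 and CCK 1 each.

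Genes listed as partners of the fusion at enhancers had 7 of 11 with a region (63.6%), a median of 1, while gained regions lay near 1 of the 11, against 34.5% of all protein-coding genes, and stable ones near 8. TCF12, an E-protein, had 4, along with 3 lost regions with a run. MEIS1 and OTX2, homeobox factors, had 3 each, and KLF15, a zinc finger factor of the core circuit in this tumour, had 2. The strongest near KLF15, at chr3:126261130-126262309, had folds of 6.55 and 5.63, with 6.58 in the siNEG 1a list and no siFLI1 1a peak. TCF4, NKX2-2 and RREB1 had 1 each. At TCF4 the fold differed between replicates, 2.25 in replicate 1 and 6.62 in replicate 2, with 4.28 in the siNEG 1a list.

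The other lists lay nearer the background of 22.5%. Genes listed as lowered by the fusion had 5 of 15 (33.3%), with gained regions near 8, against the same 34.5% of all genes. TNC, an extracellular matrix glycoprotein, had 4 and TGFBR2, the type II TGF-beta receptor, had 2. The strongest near TGFBR2, at chr3:30691025-30691776 inside the gene, had folds of 7.99 and 5.32, with 5.20 in the siNEG 1a list and no siFLI1 1a peak. AP-1 subunits had 3 of 9 (FOSB, FOS and FOSL2), the ETS family 6 of 19, neural and neural crest factors 6 of 20, cell cycle genes 4 of 15 and mesenchymal matrix genes 2 of 10. Gained regions lay near 6 of the 9 AP-1 subunits, 11 of the 19 ETS genes, 4 of the 20 neural factors, 7 of the 15 cell cycle genes and 7 of the 10 matrix genes. Among the neural crest factors, PAX3 had 4 and POU3F2 had 2. In the ETS family, 0 of the regions lay within 100 kb of ETS1, FLI1 or ERG.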

How the data were processed

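H3K27ac, H3K4me3 and ETS1 chromatin immunoprecipitation was sequenced in TC-32 cells. The 22 samples comprised 14 libraries with a peak list and 8 inputs, which were not used here. The deposited lists were called per library and have the form MACS2 writes. Per the submitters' processing notes, cutadapt 4.4, BWA 0.7.17, Picard 2.17.11 and MACS2 2.1.1 were used with the builds hg38 and dm6; settings, control libraries and the role of dm6 are not given in the sources used here. The deposited fold is the authors' ratio over local background, and the deposited −log10 columns are the authors' p-values and q-values. The deposited score column was not used. Peak lists hold no read counts, so depth is unknown. Between 18344 and 19720 H3K4me3 peaks and between 60027 and 65501 H3K27ac peaks were listed per library outside the 1a pair, all with a q-value past 2 on the −log10 scale.

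Peaks were merged and compared with Python 3.11.15, NumPy 2.4.6 and SciPy 1.17.1. Sequence was read from hg38 with pysam 0.24.0, figures were drawn with matplotlib 3.10.9, and coordinates count from 1. A region's fold is that of its strongest peak in the list. Merging, run finding and the tests were tested on simulated data. Shares have 95% exact (Clopper-Pearson) intervals over regions, and shares of H3K4me3 were compared by an exact permutation test over samples. Named regions are the 10 with the highest fold in the weaker siNEG list, the 5 strongest found in the siNEG 1a list only, the strongest per listed gene, and the largest groups; the rest are named with the reason. The regions, the gene lists and the measures were chosen with earlier results of these data known. Alternatives covered the overlap, the distances, run length, peak strength, list length and left-out replicates. Some items, among them 1 member of a gene list and some sequence windows, are not reported here.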

Additional observations from a re-analysis of the deposited data

How the results depend on the processing

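The number of regions stayed between 2161 and 3500 under the other distance, run, start and list-length limits, and the 50% overlap alternative gave 3141 by construction, since a merged region contains its peaks. It fell to 1900 with siNEG peaks limited to −log10 q of at least 5, and ranged from 4328 to 11839 when 1 replicate was left out, the high end without a siNEG replicate. The share in the siNEG 1a list only, 11.5%, was 13.8% with equal numbers of peaks, 15.4% at −log10 q of at least 5, 10.3% with no siFLI1 1a peak within 1 kb, and 12.6% for regions with no siFLI1 peak within 1 kb. It was 17.3% with and 10.2% without a run between 1 and 10 kb, a split added after seeing the data, and 4.83% to 11.6% with 1 replicate left out. The cause of these shifts was not tested. The share with a GGAA run within 10 kb, 18.1%, was 24.1% for 3 or more units and 15.2% for 5 or more. The H3K4me3 difference stayed between −0.844 and −1.05 points; replicate numbers are not known to pair samples, and with a replicate block it was −1.003 (exact sign-flip p = 0.50, the smallest possible). The H3K4me3 difference kept its sign in every alternative run. The only ETS1 alternative, a peak within 1 kb, gave 0.0955 points against 0.0796. Its sign could hardly change, since both siNEG ETS1 lists held 0 of the regions. For words at summits, 30 of 48 alternatives (shorter or longer windows, or the summit of the other siNEG list) moved the share by more than its interval. The order of lost against gained or stable regions flipped in some of these for GGAA, AP-1, CATCTG, NKX2, RUNX and NFI words: AP-1 was 10.8% against 11.5% at stable summits, and 7.35% against 7.12% with 100 bp to each side.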
